A study of Rattus norvegicus with 7 samples.

Results

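The genes described here are 10 genes of the circadian clock and its output: Clock, Per1, Per2, Per3, Cry1, Cry2, Nr1d1, Nr1d2, Dbp and Hlf. They were chosen by name, with earlier results of these data known. Every array probe set whose annotation gives exactly 1 of these gene symbols was taken, whatever its values. All 10 genes are on the array, out of 14217 genes with a symbol, and they have 21 probe sets out of 31042 that are not controls. Of these 21 probe sets, 18 lie among the 18625 probe sets with the higher mean signal that were tested, and each of the 10 genes has at least 1 tested probe set. The samples are 7 cultures of NRK-52E, an established epithelial cell line from normal rat kidney, each measured on 1 Affymetrix expression array. The cultures were transfected with a small interfering RNA (siRNA) designed against Adamts16, a secreted metalloprotease, or with a scrambled control RNA. The 2 cultures with siRNA Adamts16-3488 and the 2 with siRNA Adamts16-2600 received different sequences against the same gene, and the scrambled control has 3 cultures. All 7 cultures shared the line, an RNA dose of 100 pmol per ml, seeding at 20% confluence, medium with 10% serum and collection at 48 h, and 5 ug of total RNA was labelled from each. Whether cultures numbered as replicates were grown on separate days is not stated, so the p-values measure the spread between these cultures. The sources used here give neither the time of day nor any step that sets cell clocks to a common phase. With 1 collection time, no rhythm, phase or amplitude was measured.

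In the mammalian clock, CLOCK and BMAL1 bind as a pair to E-boxes in DNA and activate the Per and Cry genes, whose proteins return to the nucleus and inhibit the pair that made them. The same pair activates Nr1d1 and Nr1d2, which encode the nuclear receptors REV-ERB alpha and beta, and these repress Bmal1 through ROR elements. DBP, HLF and TEF are transcription factors of the PAR-bZIP family that act at D-boxes and carry the rhythm to output genes, while NFIL3 competes for the same sites. In kidney the clock is known for its part in the daily rhythm of salt and water handling, and in cultured cells serum and glucocorticoids are known to set its phase.

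These elements are shown where they occur in the members' own promoters. RefSeq promoter windows of 250 bases before to 50 after each start (rat build GRCr8) held 8 of the 10 members, all but Cry1 and Hlf. Both strands were searched for 5 motifs, none of which contains another: the E-box CACGTG, the E-prime box CACGTT, the D-box TTATGTAA, the ROR element core TAGGTCA and the cyclic AMP response element TGACGTCA. Over all 33469 windows in the table, 6.42% held the E-box, 4.83% the E-prime box, 0.893% the D-box, 2.63% the ROR element core and 1.83% the cyclic AMP response element. Matches were found in 3 members, Per2, Nr1d1 and Cry2. The windows of Per1, Per3, Clock, Nr1d2 and Dbp held none of these letters. The stretches below run 5′ to 3′ on the gene's strand, with the match in capitals, and AACGTG is the E-prime box read from the opposite strand. Bmal1 and Tef, which belong to the loop but not to the members, are given for comparison.
Per2, D-box, chr9:99497167-99497196, minus strand: ccatgtgcgtcTTATGTAAagagagcgacg
Per2, E-prime box, chr9:99497038-99497067, minus strand: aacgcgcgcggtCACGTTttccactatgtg
Nr1d1, E-box, chr10:84229628-84229657, minus strand: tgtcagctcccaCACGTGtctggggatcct
Nr1d1, E-prime box at its other start, chr10:84231969-84231998, minus strand: cgcatagagctcAACGTGcccgctgctgga
Cry2, E-prime box, chr3:98860632-98860661, minus strand: acacatggtgggAACGTGagggggcggggc
Tef, E-box, chr7:115206617-115206646, plus strand: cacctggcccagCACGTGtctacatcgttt
Bmal1, ROR element core, chr1:176766298-176766327, plus strand: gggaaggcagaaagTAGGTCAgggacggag
The Per2 D-box match begins 192 bases upstream of the start and its E-prime box 62 bases upstream. The Nr1d1 E-box lies 191 bases upstream of 1 start and the E-prime box 174 bases upstream of the other. These are matches of letters, and binding was not measured in these cultures.

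Some facts of the whole series bear on every value below. Signals were scaled by the authors to a common trimmed mean, and the median signal was 128 to 132.4 with siRNA 3488, 125.7 to 136.6 with siRNA 2600 and 138.8 to 139.3 in the controls. The ratio of 3′ to 5′ beta-actin signal, a measure of RNA and labelling quality, was 1.94 to 1.96 with siRNA 3488, 1.81 to 1.83 with siRNA 2600 and 1.74 to 1.79 in the controls. The 18 spike-in control probe sets stood 0.52 above the controls in median log2 signal with siRNA 3488 and 0.03 above with siRNA 2600. The Adamts16 probe set lay below the tested range, at 2.42 to 40.4 in the 4 siRNA cultures and 7.18 to 18.9 in the controls, with a log2 change of 0.25 (95% interval -1.78 to 2.29), so that the knockdown cannot be read from these arrays. Of 9 epithelial kidney markers on the array, Krt8, Krt19 and Lcn2 were in the tested range, while Cdh1, Cdh16, Epcam, Krt18, Pax2 and Pax8 were below it. Of 8 fibroblast markers, Col1a1, Col1a2, Col3a1 and Pdgfrb were in the tested range and Dcn, Lum, Pdgfra and Thy1 were not. The summed fibroblast marker signal was 28398 to 32350 with siRNA 3488, 22624 to 24199 with siRNA 2600 and 21967 to 22703 in the controls. Most of that sum was Col3a1, which read 24439 and 28463, 19019 and 20479, and 19051, 19931 and 19210 in the same order. The sum of 6 macrophage and leukocyte markers was 6339 to 6627, 6468 to 6541 and 6069 to 6561 in the same order. Most of it was Cd14, at 5688 to 6258 on the 7 arrays, and Ptprc, Csf1r and Itgam were below the tested range. Cd68, a lysosomal protein of macrophages, rose with siRNA 3488 (0.67, adjusted p = 0.0141). Of 5 endothelial markers Tek alone was in the tested range. The part that any of these play in the results below was not tested.

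With siRNA 3488, where 8.74% of all tested probe sets were called lower, 3 clock genes had a probe set called lower than the control. At the brightest probe set of each gene, Per3 fell to 0.625 of the control level, Nr1d2 to 0.703 and Hlf to 0.719. Per3 1388239_at and Hlf 1374709_at did not fall with this siRNA, at 1.13 and 1.07 of the control. With siRNA 2600, where 0.483% of all tested probe sets were called lower, Hlf fell to 0.485 of the control at 1386641_at. No other member passed the test. The remaining members, among them Clock, Per1, Cry1 and Dbp, did not pass it with either siRNA. Changes are given as log2 differences with standard errors from a limma model over all 7 arrays, and a probe set was called where the Benjamini-Hochberg adjusted p over all 18625 tested probe sets was under 0.05. Signals are in arbitrary scaled units and say nothing of 1 probe set's level against another's. In these bulk samples, fewer cells that make an RNA cannot be told apart from less of that RNA per cell.

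**Figure D1:**
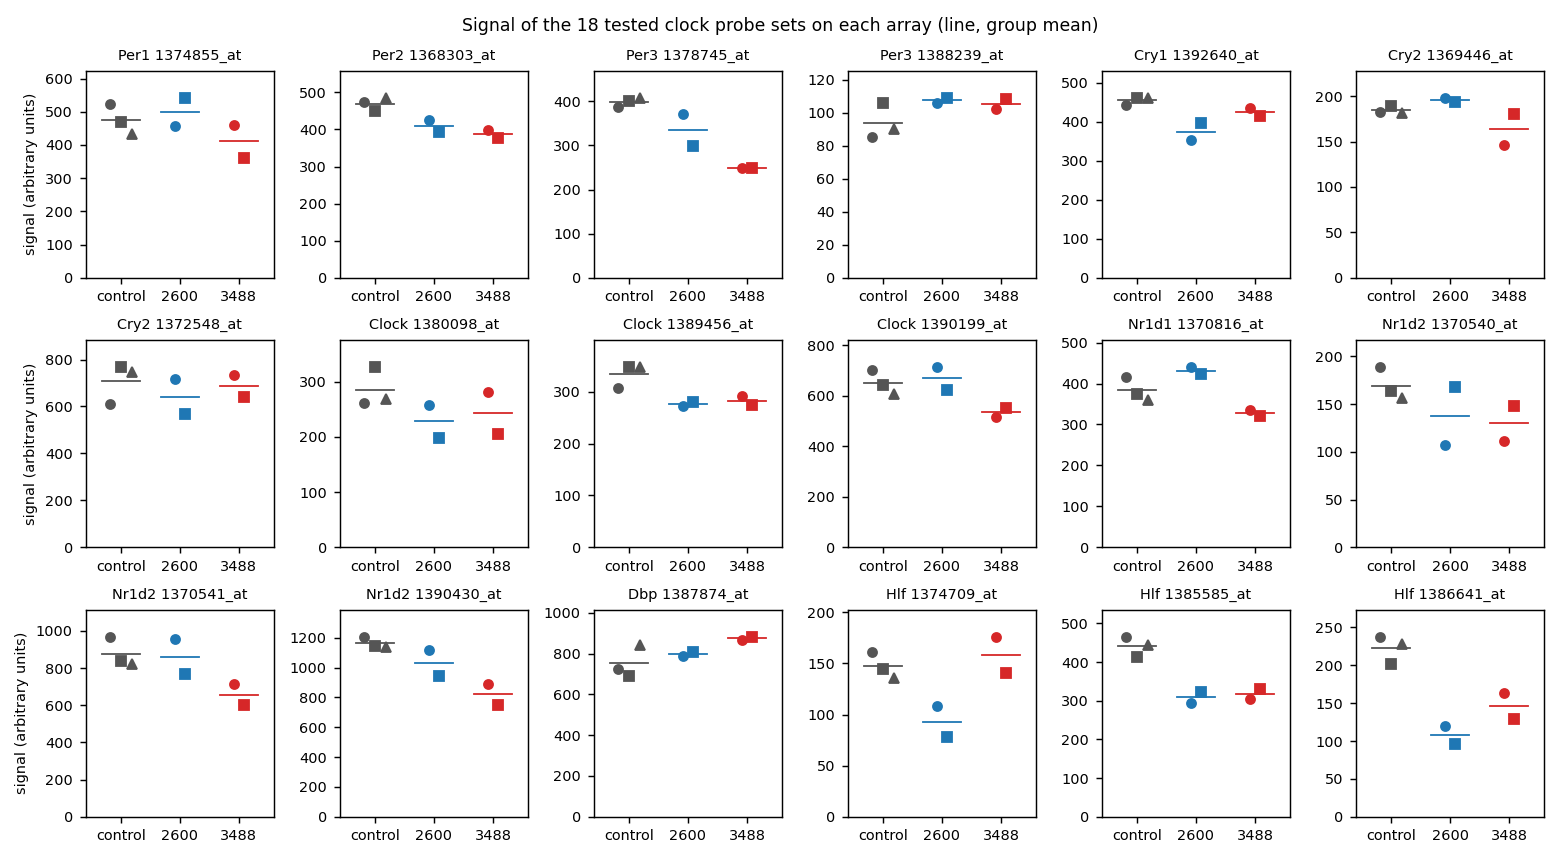
Each panel plots the signal of 1 tested clock probe set (vertical axis, arbitrary units, from 0) on the 7 arrays, by group: control, siRNA 2600 and siRNA 3488. Points are arrays, with their shape marking the replicate number, and lines are group means. Both siRNA 3488 arrays sit lower than every control array in 12 of the 18 panels, among them Per3 1378745_at, Nr1d2 1390430_at and Hlf 1385585_at. In 1 panel, Dbp, both sit higher. The share of all tested probe sets set apart in this comparison is not given here.

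Clock encodes the DNA-binding partner of BMAL1 in the activating pair. Its brightest tested probe set, 1390199_at, read 517 and 549.6 under siRNA 3488, 712 and 623 under siRNA 2600, and 699.5, 642 and 604 in the controls. Both siRNA 3488 cultures were below every control, while the siRNA 2600 cultures overlapped them. The log2 change was -0.28 ± 0.10 (SE) with siRNA 3488 (adjusted p = 0.0887) and 0.04 ± 0.10 with siRNA 2600 (adjusted p = 0.891). At 1389456_at the arrays read 292 and 274 under siRNA 3488, 272 and 279.6 under siRNA 2600, and 307, 348 and 347 in the controls. All 4 siRNA cultures lay below all 3 controls there, with log2 changes of -0.24 ± 0.12 (adjusted p = 0.221) and -0.27 ± 0.12 (adjusted p = 0.333). At 1380098_at the 4 siRNA cultures read 198 to 282 and the controls 262 to 326. The remaining Clock probe set, 1369168_a_at, lay below the tested range at 52.5 to 83.9, and an exact two-sided permutation test of its 4 siRNA arrays against 3 controls gave p = 0.8, where 35 regroupings allow no p below 0.0571. No Clock probe set passed the test, and the 3 tested ones did not share a direction with siRNA 2600.

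Bmal1 encodes the partner of CLOCK in that pair. Its brightest probe set read 259.6 and 238 under siRNA 3488, 249 and 309.6 under siRNA 2600, and 290.4, 297 and 241 in the controls. The groups overlapped, and the log2 change was -0.15 ± 0.15 (adjusted p = 0.552) with siRNA 3488 and 0.01 ± 0.15 (adjusted p = 0.981) with siRNA 2600.

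The Per genes encode the PERIOD proteins, which carry the inhibition of the pair. Per3 had the smallest adjusted p of the members with siRNA 3488. Its probe set 1378745_at read 249.5 and 249 under siRNA 3488, 371 and 298 under siRNA 2600, and 388, 400.5 and 408 in the controls. Both siRNA 3488 cultures were far below the narrow control range, and both siRNA 2600 cultures lay between. Group means were 249 ± 0.429 (SD, n = 2), 335 ± 51.7 (SD, n = 2) and 399 ± 10.2 (SD, n = 3). The log2 change was -0.68 ± 0.13 with siRNA 3488 (95% interval -0.96 to -0.40, adjusted p = 0.00896) and -0.26 ± 0.13 with siRNA 2600 (interval -0.55 to 0.02, adjusted p = 0.371). The call with siRNA 3488 was lost without siRNA 3488 replicate 2, where the log2 change stayed at -0.68 and the adjusted p was 0.0623. Wherever 1 siRNA array is left out here or below, the remaining array of that siRNA is assumed to vary like the other groups. The other Per3 probe set, 1388239_at, did not follow: it read 102 and 108 under siRNA 3488, 106 and 109 under siRNA 2600, and 85.0, 106 and 90.3 in the controls. Its log2 change was 0.17 ± 0.23 with siRNA 3488 (adjusted p = 0.644), and its mean signal was close above the lower limit of the tested range, 68.2.

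Per2 1368303_at read 398 and 376 under siRNA 3488, 425 and 392 under siRNA 2600, and 475, 449 and 486 in the controls. All 4 siRNA cultures lay below all 3 controls, at means of 387 ± 15.3 (SD, n = 2), 409 ± 23.3 (SD, n = 2) and 470.0 ± 19.2 (SD, n = 3). With siRNA 3488 the log2 change was -0.28 ± 0.10 (adjusted p = 0.0935), and with siRNA 2600 it was -0.20 ± 0.10 (adjusted p = 0.397), and neither passed. The dim Per2 probe set 1378560_at read 7.39 to 17.2 on the 7 arrays and gave an exact two-sided permutation p = 0.686. Per1, the period gene that serum and glucocorticoids induce most quickly, read 459.7 and 362 under siRNA 3488, 456 and 542 under siRNA 2600, and 523, 468 and 432 in the controls. Its groups overlapped, with log2 changes of -0.21 ± 0.14 (interval -0.52 to 0.09, adjusted p = 0.323) and 0.07 ± 0.14 (interval -0.24 to 0.38, adjusted p = 0.851).

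The cryptochromes, Cry1 and Cry2, are the strongest repressors of the pair. Cry1 1392640_at read 435 and 414 under siRNA 3488, 352 and 397 under siRNA 2600, and 442, 462 and 460.4 in the controls. All 4 siRNA cultures were below all 3 controls, the siRNA 2600 cultures furthest. The log2 change was -0.10 ± 0.11 (adjusted p = 0.556) with siRNA 3488 and -0.28 ± 0.11 (adjusted p = 0.243) with siRNA 2600. Cry2 had its brighter probe set, 1372548_at, at 735 and 639 under siRNA 3488, 716 and 567 under siRNA 2600, and 609.9, 768 and 745 in the controls. Here the groups overlapped, and the log2 changes were -0.04 ± 0.13 (interval -0.34 to 0.26) and -0.14 ± 0.13 (interval -0.44 to 0.15). The dimmer Cry2 1369446_at read 147 and 181 under siRNA 3488, 198 and 194 under siRNA 2600, and 183, 189 and 181 in the controls. Neither cryptochrome passed the test with either siRNA.

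Nr1d2, which encodes REV-ERB beta, had 3 tested probe sets, and 2 of them fell with siRNA 3488. The brightest, 1390430_at, read 892 and 749.7 under siRNA 3488, 1119 and 946 under siRNA 2600, and 1207, 1146 and 1137 in the controls. All 4 siRNA cultures were below all 3 controls, and the siRNA 3488 cultures were the lowest. This was a log2 change of -0.51 ± 0.10 (interval -0.73 to -0.28, adjusted p = 0.0107) with siRNA 3488 and -0.18 ± 0.10 (adjusted p = 0.445) with siRNA 2600. Probe set 1370541_at read 713 and 600.1 under siRNA 3488, 956 and 766 under siRNA 2600, and 969, 836 and 823 in the controls. The siRNA 3488 cultures lay below every control, while the siRNA 2600 cultures overlapped the controls. The log2 change was -0.42 ± 0.12 (interval -0.69 to -0.15, adjusted p = 0.0450) and -0.03 ± 0.12 (adjusted p = 0.937). The dim 1370540_at read 111 and 148, 107 and 168, and 189, 164 and 156 in the same order, with a log2 change of -0.40 ± 0.24 (adjusted p = 0.286) with siRNA 3488, so that all 3 probe sets of the gene had a similar estimate and the least bright had the widest error. Without siRNA 3488 replicate 2 the log2 changes were -0.38 at 1390430_at (adjusted p = 0.0977) and -0.29 at 1370541_at (adjusted p = 0.283). Without control replicate 1 they were -0.48 (adjusted p = 0.0508) and -0.34 (adjusted p = 0.151). The call at 1370541_at was also lost without control replicate 2 (adjusted p = 0.0871) or control replicate 3 (adjusted p = 0.0685), and under quantile normalization (adjusted p = 0.0818).

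Nr1d1 encodes REV-ERB alpha, and its promoter carries the E-box printed above. Its probe set read 334 and 321 under siRNA 3488, 439.9 and 423 under siRNA 2600, and 415, 375 and 360.3 in the controls. The siRNA 3488 cultures were below all 3 controls and the siRNA 2600 cultures above all 3. The log2 changes were -0.22 ± 0.11 (interval -0.47 to 0.02, adjusted p = 0.198) and 0.17 ± 0.11 (interval -0.08 to 0.42, adjusted p = 0.512), and neither passed.

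Among the outputs, Dbp is the PAR-bZIP gene driven most directly by the pair through E-boxes. It read 867 and 883 under siRNA 3488, 791 and 810.3 under siRNA 2600, and 725, 693 and 842 in the controls. Both siRNA 3488 cultures were above every control and the siRNA 2600 cultures lay within the control range. Means were 875 ± 11.4 (SD, n = 2), 800.4 ± 14.0 (SD, n = 2) and 753 ± 78.4 (SD, n = 3). Dbp had a log2 change of 0.22 ± 0.10 (interval 0.01 to 0.44, adjusted p = 0.141) with siRNA 3488 and 0.09 ± 0.10 (interval -0.12 to 0.31, adjusted p = 0.702) with siRNA 2600.

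Hlf, the hepatic leukemia factor, had the largest log2 change of any tested member probe set, and its probe sets differed among themselves. The brightest, 1385585_at, read 304 and 330.2 under siRNA 3488, 295 and 323 under siRNA 2600, and 466, 413 and 444 in the controls. Both siRNAs left it at like levels well below the controls, with log2 changes of -0.47 ± 0.12 (interval -0.73 to -0.22, adjusted p = 0.0230) and -0.51 ± 0.12 (interval -0.77 to -0.26, adjusted p = 0.0746). Probe set 1386641_at read 164 and 129 under siRNA 3488, 120.2 and 96.6 under siRNA 2600, and 238, 202 and 228 in the controls. All 4 siRNA cultures were again below all 3 controls, here with the siRNA 2600 cultures lowest on average. Its log2 change was -0.61 ± 0.20 (interval -1.05 to -0.18, adjusted p = 0.0589) with siRNA 3488 and -1.04 ± 0.20 (interval -1.48 to -0.61, adjusted p = 0.0382) with siRNA 2600. The third, 1374709_at, read 176 and 140.5 under siRNA 3488, 108 and 77.7 under siRNA 2600, and 161, 145 and 136 in the controls. There the siRNA 3488 cultures overlapped the controls (log2 change 0.10 ± 0.22, adjusted p = 0.793) while the siRNA 2600 cultures lay below them (-0.68 ± 0.22, adjusted p = 0.190). The siRNA 2600 means at 1386641_at and 1374709_at, 108 and 93.0, were also close above the lower limit of the tested range, 68.2. The remaining probe set, 1384811_at, ranged from 1.37 to 24.4 below the tested range (exact two-sided permutation p = 0.886).

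Both Hlf calls were sensitive to the processing and to which arrays entered the fit. The call at 1385585_at with siRNA 3488 was lost under quantile normalization (limma adjusted p = 0.0655), median centring (0.0679) and cyclic loess (0.0758). It was also lost without the intensity trend (0.0520) and with the replicate block (0.0541). The call at 1386641_at with siRNA 2600 was lost under cyclic loess, without a filter, without the intensity trend and with the replicate block. At 1385585_at with siRNA 3488, the adjusted p was 0.0894 without siRNA 3488 replicate 1, 0.0795 without siRNA 3488 replicate 2, and 0.0918, 0.0508 and 0.0640 without control replicate 1, 2 or 3, and the log2 change stayed between -0.54 and -0.41 in these 5 fits. At 1386641_at with siRNA 2600, the adjusted p was 0.138 without siRNA 2600 replicate 2 and 0.155, 0.121 and 0.159 without control replicate 1, 2 or 3, with log2 changes from -1.11 to -0.89.

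**Figure D2:**
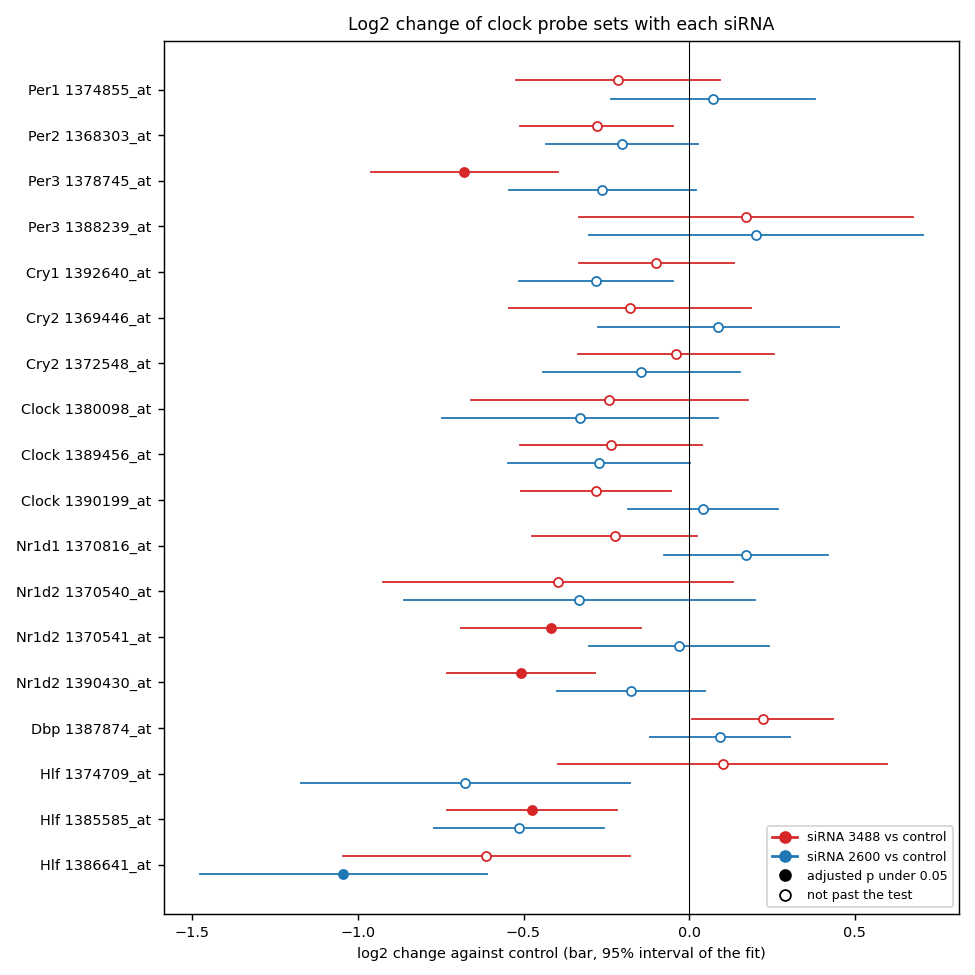
Log2 change against control (horizontal axis) of the 18 tested clock probe sets with siRNA 3488 (red) and siRNA 2600 (blue), with 95% intervals of the limma fit as bars. Filled points passed an adjusted p of 0.05: 4 with siRNA 3488 (Per3, both Nr1d2 and 1 Hlf probe set) and 1 with siRNA 2600 (Hlf), all below 0.

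Counted over the 18 tested probe sets, siRNA 3488 gave 4 lower calls (22.2%) in 3 genes and no higher call. Over all tested probe sets in that comparison, 8.74% were called lower and 6.89% higher. The members' count was 2 under quantile normalization, median centring or cyclic loess, and 0 without siRNA 3488 replicate 2. In all, 8 of the 18 had an unadjusted limma p under 0.05, beside 5934 of the 18625 tested. The members' median log2 change was -0.24, with 15 of 18 below 0, and the median of all tested probe sets was -0.06, with 58.7% below 0. Under median centring of the arrays the members' median was -0.14 beside 0.03 for all tested probe sets, and under cyclic loess it was -0.12 beside -0.01. In the same fits of siRNA 3488, the split over all tested probe sets of 1283 higher and 1628 lower calls became 1728 higher and 576 lower with median centring, while Per3 and Nr1d2 1390430_at kept their lower calls.

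With siRNA 2600, 1 of the 18 (5.56%) was called lower and none higher, beside 0.483% and 0.548% of all tested probe sets. Without control replicate 1, 2 or 3 or siRNA 2600 replicate 2, and under cyclic loess, that count was 0. Here 4 of 18 had an unadjusted limma p under 0.05, beside 2831 of all 18625. The members' median log2 change was -0.19, with 12 of 18 below 0, and the median of all tested was -0.02, with 54.5% below 0.

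With the 4 siRNA cultures taken as 1 group against the 3 controls, no member passed the limma test, beside 0.145% of all tested probe sets. The lowest adjusted p was 0.0832, at Hlf 1385585_at, where the log2 change was -0.49 ± 0.10 and all 4 siRNA cultures were lower. Of the 18, 6 had an unadjusted p under 0.05, beside 3310 of all tested. In 7 of the 18 all 4 siRNA arrays were below all 3 controls, and in none were all 4 above. Over all tested probe sets 11.0% were apart in that lower direction. The 7 were Per2 1368303_at, Per3 1378745_at, Cry1 1392640_at, Clock 1389456_at, Nr1d2 1390430_at, and Hlf 1385585_at and 1386641_at. Without siRNA 2600 replicate 1, where 1304 of all 18625 tested probe sets passed, the limma test called 4 of them: Per3 (log2 change -0.59, adjusted p = 0.0214), Nr1d2 1390430_at (-0.44, 0.0246) and both Hlf probe sets (-0.47, 0.0307, and -0.81, 0.0438). The comparisons of each siRNA with the controls share the same 3 control arrays, and their values are therefore set side by side without a test of their likeness.

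The siRNAs can also be set against each other. The log2 difference itself does not use the control signals, but the control arrays enter the error estimate of the fit. When the fit used the arrays of the compared siRNAs alone, no member passed, and 0.156% of all tested probe sets did. In the fit that includes the controls, no member passed, while 6.01% of all tested probe sets did. There 6 of the 18 had an unadjusted limma p under 0.05, beside 4412 of all. The lowest adjusted p was at Nr1d1, with a log2 difference (siRNA 3488 minus siRNA 2600) of -0.40 ± 0.12 (interval -0.67 to -0.12, adjusted p = 0.0857). Hlf 1374709_at had a difference of 0.78 ± 0.25 (interval 0.23 to 1.32, adjusted p = 0.0902), Per3 1378745_at of -0.42 ± 0.14 (interval -0.73 to -0.11, adjusted p = 0.106) and Nr1d2 1390430_at of -0.33 ± 0.11 (interval -0.58 to -0.09, adjusted p = 0.104). At Hlf 1385585_at the difference was 0.04 ± 0.13 (interval -0.24 to 0.32). Without siRNA 2600 replicate 2, where 8.39% of all tested probe sets passed, Per3 (-0.57, adjusted p = 0.0448), Nr1d2 1370541_at (-0.55, adjusted p = 0.0431) and Nr1d2 1390430_at (-0.45, adjusted p = 0.0445) passed. That fit has 1 siRNA 2600 array.

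The spread of the 3 control cultures at the clock probe sets was near that at all tested probe sets. Over the 18 tested probe sets, the SD of the log2 signal among the 3 controls had a median of 0.114 and ran from 0.0322 to 0.180, beside a median of 0.102 over all tested probe sets. The highest control signal was 1.04 to 1.26 times the lowest. The lowest and the highest of these ratios both belonged to Cry2, 1.04 at 1369446_at and 1.26 at 1372548_at, and at Dbp the ratio was 1.22. Pooled over the 3 groups, the within-group SD had a median of 0.118 for the members and 0.135 for all tested probe sets.

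**Figure D3:**
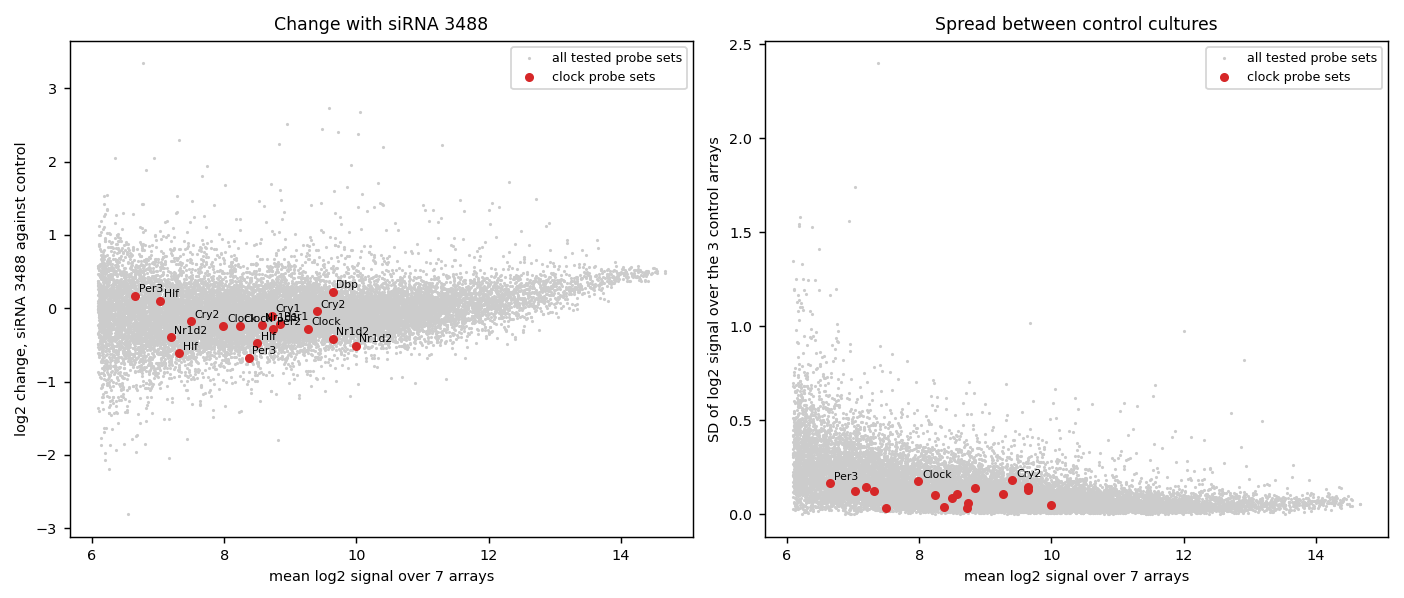
Left, log2 change with siRNA 3488 against control (vertical axis) by mean log2 signal over 7 arrays (horizontal axis), for all 18625 tested probe sets (grey) and the 18 clock probe sets (red). Right, SD of log2 signal over the 3 control arrays by the same mean; the clock probe sets run from 0.0322 to 0.180 and lie within the grey cloud.

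Array by array, the median deviation of the 18 probe sets from the control mean was -0.22 and -0.27 on the log2 scale in the siRNA 3488 cultures, with 14 and 16 of 18 below the control mean. In the siRNA 2600 cultures it was -0.08 and -0.22, with 11 and 13 of 18 below. The control arrays themselves were at 0.04, -0.02 and -0.03, with 8, 11 and 10 of 18 below. Over all tested probe sets the median deviation was -0.05 and -0.07 in the siRNA 3488 cultures, and -0.02 and -0.01 in the siRNA 2600 cultures. Within siRNA 2600 the cultures were unlike: replicate 1 was near the controls at Per3 (-0.10) and Nr1d2 1390430_at (-0.05), and replicate 2 lay lower at both (-0.42 and -0.30). At Hlf 1385585_at both were low, at -0.58 and -0.45.

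Other clock genes were read from a list of 20, of which 16 are on the array and 11 have a tested probe set, 22 probe sets in all. With siRNA 3488, 2 of the 22 were called higher and 1 lower, and with siRNA 2600 none was, nor with both siRNAs together. These counts stand beside 6.89% higher and 8.74% lower over all tested probe sets with siRNA 3488, and with so few calls they are not set apart from that share. The lower one belongs to Tef, the PAR-bZIP relative of Dbp and Hlf whose promoter window is printed above. Tef 1385374_at read 279 and 333 under siRNA 3488, 504 and 414 under siRNA 2600, and 451, 563 and 415 in the controls. Both siRNA 3488 cultures were below all others, with a log2 change of -0.63 ± 0.15 (adjusted p = 0.0231), against -0.05 ± 0.15 (adjusted p = 0.916) with siRNA 2600. The other Tef probe sets had log2 changes with siRNA 3488 of -0.49 (1369919_at, adjusted p = 0.0537) and -0.14 (1390819_at, the brightest, adjusted p = 0.413). Nfil3, which competes with the PAR-bZIP factors at D-boxes, read 565 and 429 under siRNA 3488, 678 and 638 under siRNA 2600, and 651, 604 and 617 in the controls. Its log2 change with siRNA 3488 was -0.34 ± 0.12 (adjusted p = 0.0780).

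The higher calls were in Timeless and Usp2. Timeless, better known in mammals for its work at replication forks, read 237.6 and 359 under siRNA 3488, 184 and 201 under siRNA 2600, and 211, 158 and 175 in the controls (log2 change 0.70 ± 0.20, adjusted p = 0.0440). Usp2 encodes a deubiquitinase with a rhythmic transcript. Its 1375549_at read 341 and 376 under siRNA 3488, 227 and 246 under siRNA 2600, and 231, 287 and 258 in the controls (0.47 ± 0.14, adjusted p = 0.0472), while its brighter 1387703_a_at did not pass the test (0.00 ± 0.10, adjusted p = 0.996). Between the siRNAs, where 6.01% of all tested probe sets passed, Usp2 1375549_at passed the test (log2 difference 0.60, adjusted p = 0.0487). Csnk1d passed in opposite directions at 1370528_at (0.98, adjusted p = 0.0433) and 1395914_at (-0.29, adjusted p = 0.0495). CSNK1D is the kinase that marks PERIOD proteins for decay. The median log2 change over the 11 genes, each by its brightest probe set, was -0.11 with siRNA 3488 and 0.02 with siRNA 2600.

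Genes outside the loop that could follow or set it were counted by the brightest probe set of each gene. Their calls are those of the fit over all 18625 tested probe sets. That fit called 6.89% higher and 8.74% lower with siRNA 3488, and 0.548% and 0.483% with siRNA 2600. A separate fit with 1 probe set per gene had its own p adjustment. It called 1049 of all 10019 tested genes higher and 946 lower with siRNA 3488, and 116 higher and 67 lower with siRNA 2600. Of 8 tested clock output genes, 1 rose with siRNA 3488, Tspo (log2 change 0.23, adjusted p = 0.0461), which encodes a mitochondrial outer membrane protein. Of 6 tested glucocorticoid response genes, Dusp1, a phosphatase that acts on MAP kinases, rose at its brightest probe set with siRNA 3488 (1368146_at, 0.48, adjusted p = 0.00397) but fell at its other one (1368147_at, -0.44, adjusted p = 0.00883). Fkbp5 rose at the dimmer of its probe sets with siRNA 2600 (1380611_at, 0.76, adjusted p = 0.0313). Of 10 serum and immediate early genes, Ccn1 (0.88, adjusted p = 0.0145) and Ccn2 (0.35, adjusted p = 0.00690) rose and Junb (-0.27, adjusted p = 0.0320) fell with siRNA 3488, and Ier2 (0.57, adjusted p = 0.0451) rose with siRNA 2600. Between the siRNAs, 6.01% of all tested probe sets passed in the fit that includes the controls, and 0.156% from the compared arrays alone. In the fit with the controls, Egr1, Egr2 1387306_a_at, Ier2 and Junb were lower and Ccn2 was higher with siRNA 3488. The other tested Egr2 probe set, 1398266_a_at, did not follow (0.01, limma adjusted p = 0.984). In the same comparison Klf10 was lower (-0.29, adjusted p = 0.0344) and Tspo higher (0.29, adjusted p = 0.0485). Dusp1 passed in opposite directions, at 1368146_at (0.33) and 1368147_at (-0.47).

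Genes of dividing cells were counted in the same way, beside the same shares of all probe sets and counts over all genes. This list was chosen with earlier results of these data known, so its counts describe these arrays and are no test of growth state. Of 12 such genes, all tested, 11 rose with siRNA 3488, all but Mcm2, and 5 rose with siRNA 2600, namely Mki67, Top2a, Ccnb1, Plk1 and Kif20a, and none fell. Mki67, the gene of the Ki-67 proliferation antigen, read 2494 and 2336 under siRNA 3488, 2041 and 1942 under siRNA 2600, and 1365, 1495 and 1451 in the controls. Its log2 change was 0.75 ± 0.07 (adjusted p = 0.00120) and 0.47 ± 0.07 (adjusted p = 0.0165). The list's median log2 change was 0.64 with siRNA 3488 and 0.35 with siRNA 2600. The part that cell division plays in the clock values was not tested.

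**Figure D4:**
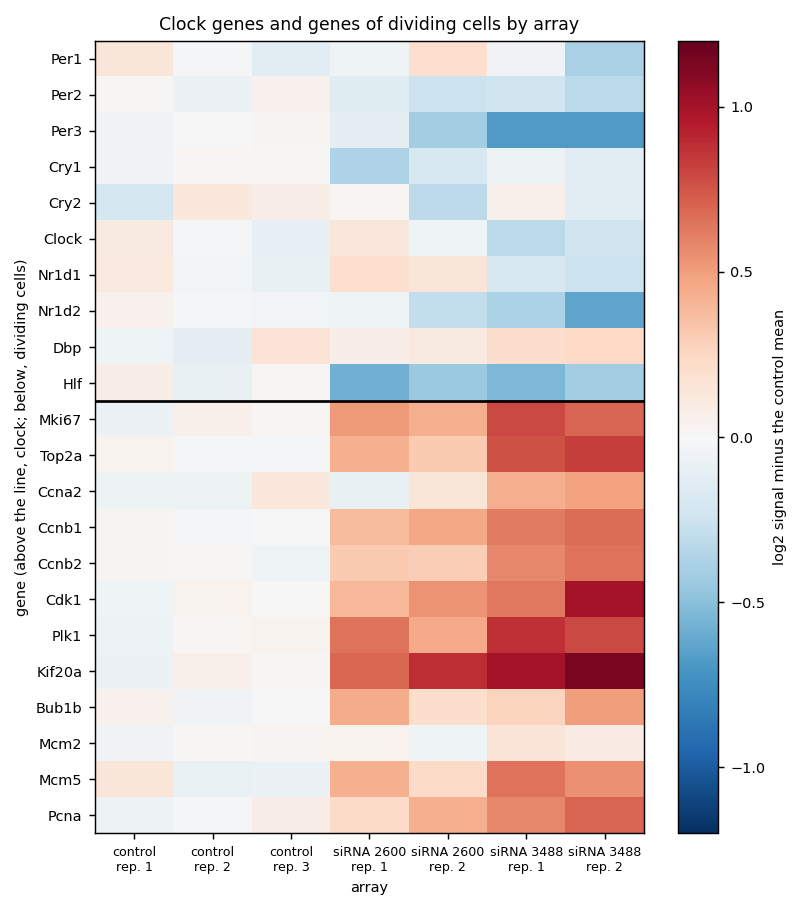
Log2 signal minus the control mean (colour, blue below and red above) on each of the 7 arrays (columns) for the brightest tested probe set of each clock gene (above the line) and of 12 genes of dividing cells (below it). Per3, Nr1d2 and Hlf are blue on both siRNA 3488 arrays and Dbp is pale red, while the genes of dividing cells other than Mcm2 are red on them.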

How the data were processed

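RNA of 7 cultures was measured on 1-colour Affymetrix arrays. The authors deposited 1 scaled, linear signal intensity for each of 31099 probe sets, and the submitters' processing notes name GCOS 1.4. The sources used here give no detection calls or settings. The deposited scaling was kept, 57 control probe sets were left out, values below 1 were raised to 1, and all were put on a log2 scale. Ranked by that scale's mean, the upper 60% (18625 probe sets, above a signal of 68.2) were tested with limma 3.58.1 in R 4.3.3 (lmFit, then eBayes with an intensity trend), and p-values were Benjamini-Hochberg adjusted over all of them. Single siRNAs were compared in a 3-group model over all 7 arrays, and both together in a 2-group model. The fit was run on simulated data with independent normal noise as a check of the code. Its power for changes of the members' size is not given here. The number of arrays limits the precision, with standard errors of the members' log2 changes from 0.09 to 0.26.

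Genes were named from the platform annotation (20826 probe sets with 1 symbol, 436 with several, 9780 with none), and 20758 of these symbols' probe sets were found in the RefSeq table of build GRCr8. Named were all clock members and, from the other lists, some of the brightest or called probe sets. Not every tested or called gene of those lists is named. The members and lists were chosen with earlier results of these data known. Alternatives changed the scaling, floor, filter, intensity trend, arrays, replicate block and probe set rule.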

Additional observations from a re-analysis of the deposited data

Results flagged for a closer look

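At 2 clock probe sets the cultures of 1 siRNA all lay above the control mean and those of the other all below it. At Nr1d1 1370816_at the siRNA 3488 cultures were below and the siRNA 2600 cultures above, and the difference between the siRNAs was -0.40 on the log2 scale (limma adjusted p = 0.0857). At Cry2 1369446_at the same order gave a difference of -0.27 (limma adjusted p = 0.400). Neither difference passed the test. The share of all tested probe sets with such a split is not given here, so the count is not read as a trait of the clock genes.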

How the results depend on the processing

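Over single clock probe sets and all alternatives, 1150 fits kept the call or stayed uncalled within 1 SD of the main value, 48 stayed uncalled but moved by more, 15 gained a call and 31 lost one, and none reversed a called value. With siRNA 3488, the 4 called members became 2 under quantile normalization, median centring or cyclic loess, 1 without the intensity trend, and 0 to 5 when 1 array was left out. With siRNA 2600, the 1 call became 0 under cyclic loess, without a filter, without the intensity trend or with the replicate block, and 0 to 1 when 1 array was left out. It was also 0 with the upper 40% of probe sets or 1 probe set per gene, where the called Hlf 1386641_at was not among those tested. With both siRNAs, the 0 calls became 4 when the siRNAs' effects were averaged in the 3-group fit, and 0 to 4 when 1 array was left out. Between the siRNAs, 0 became 1 with the replicate block (Nr1d2 1370541_at) and 0 to 3 when 1 array was left out. The cause of the other shifts was not tested.

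Cultures that share a replicate number are not shown to be paired. The correlation of their deviations from the group means ran from -0.05 to 0.16, and replicate 3 of the controls has no partner. With the replicate block, siRNA 3488 kept 3 calls among the clock probe sets, siRNA 2600 kept 0 and both siRNAs together 0.

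Over all tested probe sets, the calls with both siRNAs were 27, and 50 under quantile normalization, 66 under median centring, 0 without a filter, without the trend or with the block, 1378 in the 3-group fit, and 0 to 1304 with 1 array left out. With siRNA 3488 there were 1283 higher and 1628 lower, and in all 1839 under quantile normalization, 591 without the trend, and 474 to 3611 with 1 array left out. With siRNA 2600 there were 192, and 91 without a filter, 0 without the trend, 67 with the block, and 25 to 231 with 1 array left out. Between the siRNAs there were 1119, and 571, 727 and 694 under quantile normalization, median centring and cyclic loess, 459 without a filter, 5 without the trend, 29 from the compared arrays alone, and 95 to 1562 with 1 array left out. Each siRNA has 2 arrays, and a missed threshold does not show that a gene was unchanged.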
